A study of Homo sapiens with 8 samples.

Results

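The 10 genes described here encode enzymes that build chondroitin sulfate: CHPF, CHPF2, CHSY1, CHSY3, CSGALNACT1, CSGALNACT2, XYLT1, XYLT2, CHST3 and CHST11. They were taken by gene symbol from an expression table of 18787 genes, and all 10 were among the 14282 genes that passed the filter on low values. CHPF headed the set because it was already known to be among the most raised genes after LKB1 knockdown in these libraries, so its knockdown values are given without a test. The other 9 were added as enzymes of the same route. The study silenced LKB1, the tumour suppressor kinase encoded by STK11, in T98 and U87, established human glioblastoma cell lines, and compared RNA of these cells with RNA of cells given a control siRNA. The groups were T98 with LKB1 siRNA, T98 with control siRNA, U87 with LKB1 siRNA and U87 with control siRNA, with 2 libraries each. All cells grew in DMEM with 10% FBS, received siRNA with Lipofectamine RNAiMAX and were harvested after 72 h. How many siRNAs against LKB1 were used, and their sequences, is not stated in the sources used here.

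Chondroitin sulfate is a long chain of alternating glucuronic acid and N-acetylgalactosamine carried on proteoglycan core proteins. Xylosyltransferases start the chain by placing xylose on a serine of the core protein, a galactose and glucuronic acid linker follows, an N-acetylgalactosaminyltransferase commits the chain to chondroitin, and complexes of chondroitin synthases with chondroitin polymerising factors extend it. Sulfotransferases then place sulfate on the N-acetylgalactosamine units, mainly at carbons 4 and 6, and the pattern of sulfates sets which proteins bind. In brain, chondroitin sulfate proteoglycans form much of the extracellular matrix, including perineuronal nets, and gliomas are known to carry altered forms of them.

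Each group had 1 library on sequencing lane 2, and the other on lane 4 for T98 or lane 5 for U87. Libraries held 25234334 to 38031734 reads assigned to genes. Over all genes, the 2 libraries of a group differed between lanes by a standard deviation of 0.86 to 0.89 on the log2 scale, and LKB1 siRNA differed from control siRNA within a lane by 0.54 to 0.79. Results are therefore given from a limma-trend fit of the 4 groups, and beside it from a fit with a lane term for each line, called the lane-term fit. STK11 had normalised read counts of 340 and 588 in T98 with LKB1 siRNA, against 1999 and 2041 with control siRNA. In U87 STK11 had 361 and 385 with LKB1 siRNA, against 2445 and 2041 with control siRNA. All 4 LKB1 siRNA libraries were thus below all 4 controls. Of 8 glial and glioma markers, VIM and CD44 were abundant in both lines. NES was at 16.2 to 123 in T98 and 1361 to 2073 in U87, and OLIG2 at 25.5 to 70.4 over all libraries. S100B and FABP7 had no reads in T98, and at most 3.48 and 20.1 in U87. GFAP was at 1.85 to 8.6 in T98 and 21.6 to 50.7 in U87, and SOX2 was at most 2.89. The labels do not say that the 2 libraries of a group came from separate cultures, so p-values cover only the variation among these libraries, possibly technical.

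CHPF, chondroitin polymerising factor, lengthens the chain together with a chondroitin synthase. Its transcript NM_001195731 lies on chromosome 2, 220403669 to 220408487, minus strand (hg19). In T98, CHPF had normalised read counts of 6551 (lane 2) and 5200 (lane 4) with LKB1 siRNA, against 630 and 846 with control siRNA. In U87, CHPF had 8729 (lane 2) and 7429 (lane 5) with LKB1 siRNA, against 1397 and 1013 with control siRNA. The lowest LKB1 siRNA library was above the highest control in each line, and the groups did not overlap. The means were 5876 ± 955 in T98 with LKB1 siRNA and 738 ± 153 with control siRNA (SD, n = 2 each), a ratio of 7.96, and the ratio in U87 was 6.71. The log2 fold change of CHPF was 3.0 (SE 0.25) in T98 and 2.76 (SE 0.25) in U87. By the mean of both lines it ranked 2 among the 14282 genes, which is the value it was chosen by.

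Some sequence around CHPF is shown because earlier work on these data had found the heptamer GCAGTAC more often in 3′ untranslated regions (3′ UTRs) of raised genes. Among the 10 enzymes CHPF alone carried it, at base 268 of a 3′ UTR of 435 bases. ACPL2, the older symbol of the xylose phosphatase gene PXYLP1, also carried it, at base 8 of its 3′ UTR, and was looked up after its values were seen. Both sites were read from GENCODE transcripts on GRCh38 and are written 5′ to 3′, with the heptamer in capitals.
CHPF, chr2:219539101-219539123, minus strand: gtatttatGCAGTACagtctgcc
ACPL2, chr3:141293206-141293227, plus strand: aaggtatGCAGTACagcagtat
The sites share the run TATGCAGTACAG, of 12 bases. GCAGTAC, searched on the transcript strand only, stood in 596 of 14179 genes with a 3′ UTR (4.2%). Of genes that carried it, 23.8% were higher with LKB1 siRNA in T98 in the lane-term fit, against 7.82% of those without. In U87 the shares were 25.5% with it and 4.42% without. The letters GCAGTAC came from these same libraries, so the shares are a description and no independent support. Another heptamer that was searched, GAAGGAA, stood in 3 of the 10 (CHST11, CSGALNACT1 and XYLT1), against 17.6% of all genes. Genes with GAAGGAA had a median log2 fold change of −0.079 for the mean of both lines, against 0.02 for those without.

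CHPF has a pair of annotated starts. The RefSeq promoter of the upstream start (chr2:219543760-219544059, GRCh38.p14, minus strand) held the cyclic AMP response element TGACGTCA at 2 positions, shown here in capitals, 222 and 177 bases before the start.
CHPF, 222 bases before the start, chr2:219544014-219544041, minus strand: cctctgctccTGACGTCActcagggcgc
CHPF, 177 bases before the start, chr2:219543969-219543996, minus strand: gggctgcttcTGACGTCAcatgggacgc
Windows of 300 bases with at least 1 such element, on either strand (its letters read the same on both), made up 1.85% of 35116 RefSeq promoters, and 21 promoters (0.0598%) held at least 2. Of the 9 enzymes with a promoter entry, CHPF was the 1 that held it, and the promoter of the second CHPF start held none. GENCODE begins its match to the measured transcript at that second start. The deposited hg19 span was not placed on GRCh38, so the start used by the measured transcript was not determined. Counted by gene, 367 of 10500 tested genes with a promoter entry (3.5%) held the element. Tested genes with the element had a median log2 fold change of −0.018 for the mean of both lines, against −0.001 for those without.

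**Figure D1:**
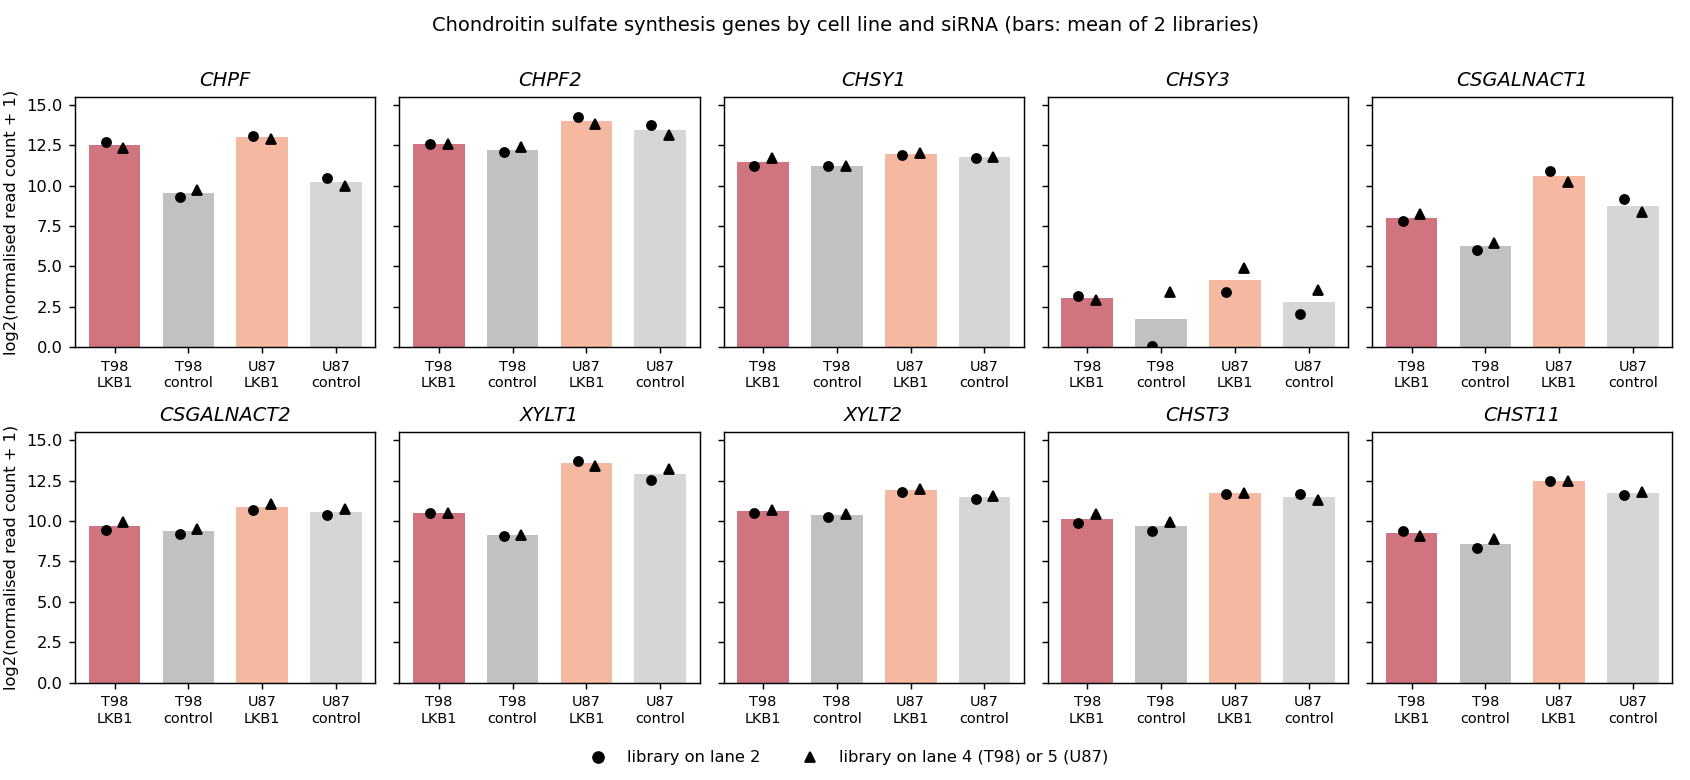
Expression of the 10 enzymes, as log2 of the normalised read count plus 1, in the 8 libraries. Bars are means of 2 libraries, points are single libraries, and LKB1 siRNA stands left of control siRNA in each line. CHPF shows the widest gap between the siRNAs, and CHST11, XYLT1 and CSGALNACT1 the widest gap between the lines.

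CHPF2, the close relative of CHPF in the same complexes, was abundant in all groups and differed little between the siRNAs. In T98, CHPF2 had 6090 and 6120 with LKB1 siRNA, against 4281 and 5257 with control siRNA (lane 2, lane 4). In U87, CHPF2 had 19007 and 14433 with LKB1 siRNA, against 13935 and 9008 with control siRNA (lane 2, lane 5). The LKB1 siRNA libraries were the higher in both lines, by a narrow margin in U87. The mean CHPF2 effect over both lines was 0.46 (SE 0.18, limma-trend adjusted p = 0.274). CHPF2 was called higher only when lanes were modelled (SE 0.09, limma-trend adjusted p = 0.0108 with the lane term).

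CHSY1, a chondroitin synthase that carries both sugar transferase activities, was not called in the knockdown comparisons over all 8 libraries, with or without the lane term. In T98, CHSY1 had 2396 and 3355 with LKB1 siRNA, against 2403 and 2419 with control siRNA, and these overlap. In U87, CHSY1 had 3732 and 4154 with LKB1 siRNA, against 3381 and 3520 with control siRNA. Its mean effect was 0.21 (SE 0.14, limma-trend adjusted p = 0.542, lane-term adjusted p = 0.157).

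CHSY3, a second synthase, was close to the detection limit. In T98, CHSY3 had 7.96 and 6.5 with LKB1 siRNA, against 0.0589 and 9.59 with control siRNA, where the lower control library held 0 reads of the gene. In U87, CHSY3 had 9.89 and 29.1 with LKB1 siRNA, against 3.23 and 10.6 with control siRNA. Both pairs of groups overlapped, and at this depth no CHSY3 difference could be shown (mean effect 1.33, SE 0.84, limma-trend adjusted p = 0.51).

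CSGALNACT1, which adds the first N-acetylgalactosamine and so commits the chain to chondroitin, had the largest fold change among the other 9 enzymes. In T98, CSGALNACT1 had 220 and 302 with LKB1 siRNA, against 64 and 86.4 with control siRNA. In U87, CSGALNACT1 had 1952 and 1181 with LKB1 siRNA, against 565 and 324 with control siRNA. The groups did not overlap in either line, and the lane 2 and lane 5 libraries of U87 differed by more than the lanes of T98. Within lanes its log2 fold change was nearly constant, at 1.77 and 1.79 in T98 and 1.79 and 1.86 in U87. CSGALNACT1 rose in the mean of both lines by 1.80 (SE 0.28, limma-trend adjusted p = 0.0305). The lane-term fit called CSGALNACT1 higher in T98 (1.78, SE 0.16, adjusted p = 0.00249) and in U87 (1.83, SE 0.16, adjusted p = 0.00195). Both calls were lost without any 1 U87 library, as were the calls of all other genes. Without the lane term neither line passed alone (adjusted p = 0.203 in T98 and 0.125 in U87), and the mean call did not hold when any 1 of the 8 libraries was dropped (limma-trend adjusted p between 0.0688 and 0.139, log2 fold change between 1.6 and 2.0) or with voom, limma's weighting of reads, on recovered reads (adjusted p = 0.057).

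CSGALNACT2, with the same activity as CSGALNACT1, differed far less between the siRNAs. In T98, CSGALNACT2 had 689 and 983 with LKB1 siRNA, against 591 and 734 with control siRNA. In U87, CSGALNACT2 had 1631 and 2126 with LKB1 siRNA, against 1305 and 1742 with control siRNA. The groups overlapped in each line, although every LKB1 siRNA library was above the control of its lane. The mean effect was 0.31 (SE 0.19, limma-trend adjusted p = 0.507), past the threshold in the lane-term fit (SE 0.09, adjusted p = 0.043).

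The make-up of the polymerisation transcripts differed between siRNAs. Per kilobase of transcript, CHPF accounted for 47.3% and 38.6% of the level summed over the 6 genes in T98 with LKB1 siRNA, against 10.0% and 11.4% with control siRNA. In U87, CHPF accounted for 29.9% and 30.3% with LKB1 siRNA, against 8.52% and 8.18% with control siRNA. The share of CHPF2 was 35.2% and 36.3% in T98 with LKB1 siRNA, against 54.6% and 56.6% with control siRNA. The share of CHSY1 was 12.1% and 17.4% in T98 with LKB1 siRNA, against 26.7% and 22.7% with control siRNA. The shares of CHPF2 and CHSY1 were thus lower with LKB1 siRNA although neither gene's own level was called lower. The summed level per kilobase averaged 4290 in T98 with LKB1 siRNA and 2160 with control siRNA. In U87 it averaged 8440 with LKB1 siRNA and 4520 with control siRNA. Because CHPF was chosen for its rise, these shares are a description and were not tested.

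**Figure D2:**
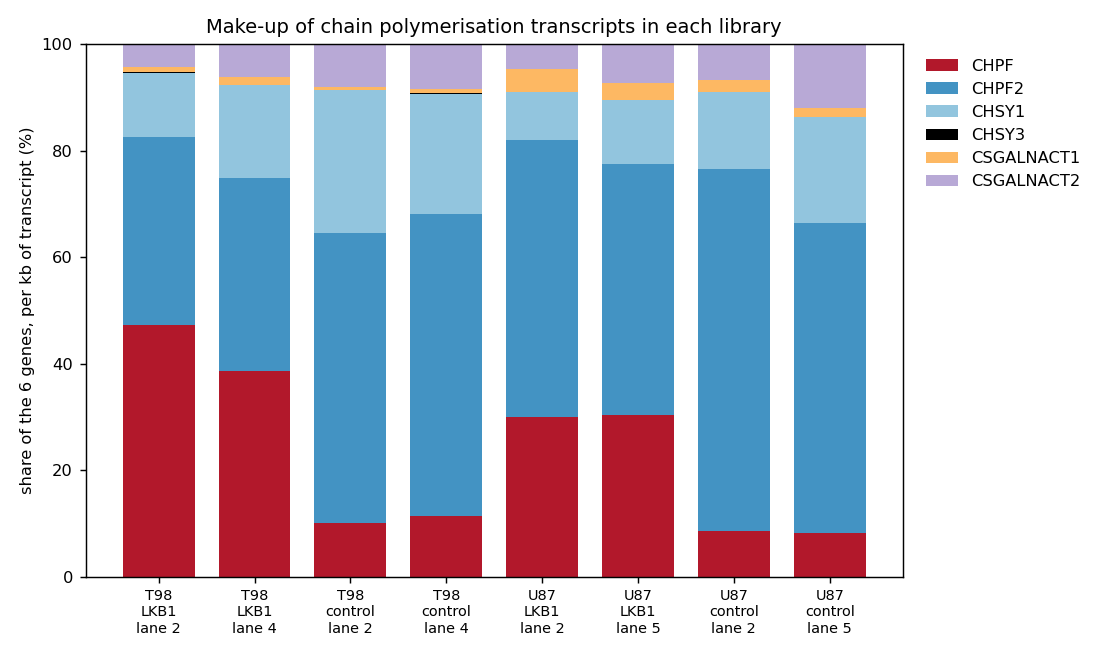
Share of each of the 6 polymerisation genes in their summed level per kilobase of transcript, in percent, for each library. CHPF makes up 29.9% to 47.3% in the LKB1 siRNA libraries, against 8.18% to 11.4% in the control siRNA libraries.

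XYLT1 and XYLT2 encode the xylosyltransferases that start chondroitin and heparan sulfate chains alike. In T98, XYLT1 had 1465 and 1428 with LKB1 siRNA, against 544 and 568 with control siRNA. In U87, XYLT1 had 13440 and 10787 with LKB1 siRNA, against 5865 and 9692 with control siRNA. The groups did not overlap, but the lanes of U87 disagreed in size, with log2 fold changes of 1.20 on lane 2 and 0.15 on lane 5, against 1.43 and 1.33 in T98. XYLT1 rose in the mean of both lines by 1.03 (SE 0.18, limma-trend adjusted p = 0.042). The XYLT1 call did not hold when any 1 of the 8 libraries was dropped (limma-trend adjusted p between 0.0634 and 0.17) or with voom (adjusted p = 0.0701). The lane-term fit called XYLT1 higher in T98 (1.38, SE 0.22, adjusted p = 0.0114), and its effect in U87 was 0.68 (SE 0.22, adjusted p = 0.0977). The T98 call of XYLT1 was lost without either lane 2 library of T98. It was also lost without any 1 U87 library, as were the T98 calls of all other genes in that fit.

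XYLT2 had 1432 and 1655 in T98 with LKB1 siRNA, against 1238 and 1367 with control siRNA. In U87, XYLT2 had 3482 and 4110 with LKB1 siRNA, against 2626 and 3048 with control siRNA. The groups did not overlap in either line, but the differences were small. The mean XYLT2 effect was 0.33 (SE 0.13, limma-trend adjusted p = 0.288), past the threshold in the lane-term fit (SE 0.08, adjusted p = 0.0239). Of the 2 genes' summed level per kilobase, XYLT1 held 28.1% and 24.8% in T98 with LKB1 siRNA, against 14.4% and 13.7% with control siRNA. In U87, XYLT1 held 59.6% and 50.1% with LKB1 siRNA, against 46.1% and 54.9% with control siRNA, and these overlap.

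CHST11 and CHST3 encode sulfotransferases for carbon 4 and carbon 6 of N-acetylgalactosamine. In T98, CHST11 had 670 and 546 with LKB1 siRNA, against 315 and 464 with control siRNA. In U87, CHST11 had 5608 and 5579 with LKB1 siRNA, against 3126 and 3551 with control siRNA. Neither line's groups overlapped, and the effect in T98 was 1.09 on lane 2 and 0.23 on lane 4. The mean CHST11 effect was 0.70 (SE 0.17, limma-trend adjusted p = 0.0915), past the threshold in the lane-term fit (SE 0.14, adjusted p = 0.0115).

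CHST3 had 922 and 1363 in T98 with LKB1 siRNA, against 668 and 999 with control siRNA. In U87, CHST3 had 3200 and 3457 with LKB1 siRNA, against 3229 and 2545 with control siRNA. The groups overlapped in both lines, and in U87 the log2 fold change was −0.01 on lane 2. The mean CHST3 effect was 0.34 (SE 0.20, limma-trend adjusted p = 0.48), at the edge of the threshold in the lane-term fit (SE 0.10, adjusted p = 0.0474).

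**Figure D3:**
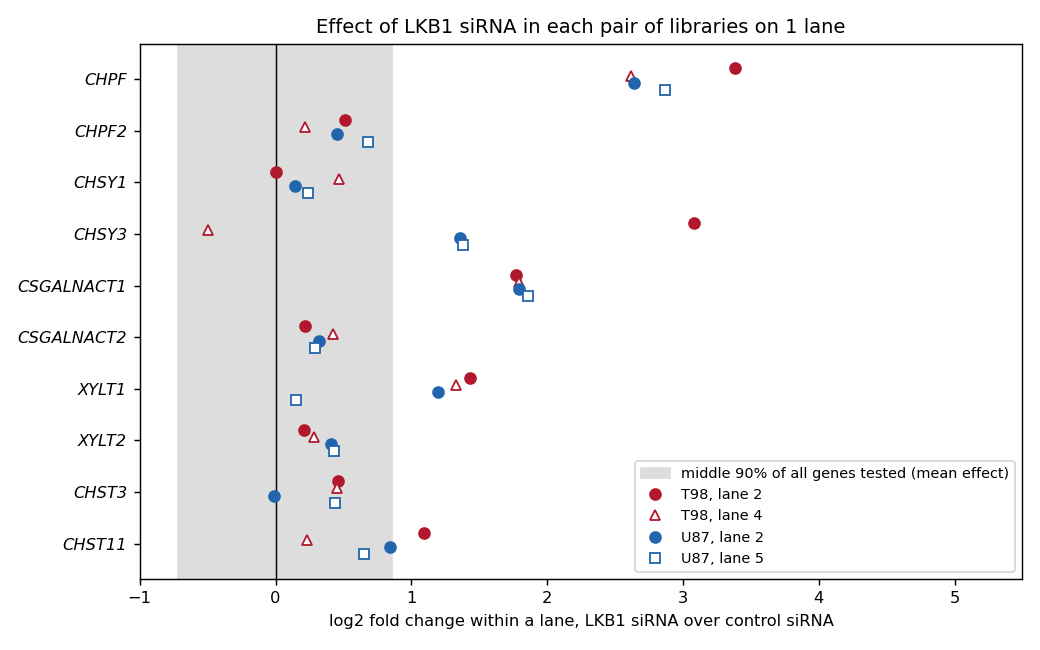
Log2 fold change of LKB1 over control siRNA for each enzyme within each pair of libraries on 1 lane. The grey band spans the 5th to 95th percentile of the mean effect over all genes tested, −0.72 to 0.86. CHPF lies outside the band in all 4 pairs, as does CSGALNACT1, and most points of the other genes are to the right of 0 within it. The band is of a mean over the 4 pairs, so single pairs can fall outside it more readily.

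Set against all genes, the 9 enzymes other than CHPF had few calls without the lane term and many with it. In T98, 0 of the 9 passed limma-trend, against 0.028% of all genes called higher, and 3 of 9 had an unadjusted p under 0.05, against 10.5% of all genes. The lane-term fit called 2 of 9 higher, against 8.48% of all genes. In U87, 0 of the 9 passed limma-trend, against 0.028% of all genes called higher, and 3 of 9 had an unadjusted p under 0.05, against 8.88% of all genes. The lane-term fit called 2 of 9 higher, against 5.29%. For the mean of both lines, 2 of the 9 rose (CSGALNACT1 and XYLT1), against 1.0% of all genes. The lane-term fit called 7 of 9 higher, against 13.2%, the exceptions being CHSY1 and CHSY3. With voom, 0 of the 9 passed for the mean, against 197 of 14282 genes, and 4 of 9 had an unadjusted p under 0.05, against 2213 of 14282 genes. Without the lane term, leaving out any 1 library made calls fewer over all genes. The lane-term calls of all 7 were lost when any 1 U87 library was dropped, as were those of every other gene tested. The CHST3 call was also lost without any 1 T98 library (adjusted p at least 0.0714), and the CSGALNACT2 call without either lane 4 library of T98.

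All 9 enzymes other than CHPF had a positive mean effect, against 50.4% of all genes, and their median was 0.46 on the log2 scale, against 0.00 for all genes tested. The LKB1 siRNA library was the higher in all 4 lane pairs for 6 of the 9, against 21.7% of all genes. In T98 both LKB1 siRNA libraries were above both controls for 5 of the 9, against 20.5% of all genes, and in U87 for 6 of the 9, against 17.6%. This held in both lines for 5 of the 9, against 7.55%. In bulk RNA, fewer cells of a type and less RNA per cell cannot be told apart. Markers of 2 other cell types had higher sums with LKB1 siRNA, neuron markers in both lines and mesenchymal markers in T98. The immune marker sum was lower in T98, at 539.3 to 619.2 with LKB1 siRNA against 711.1 to 1129 with control siRNA, and overlapped in U87. Of the 4 immune markers 1 was tested, CD68, and it made up nearly all of that sum. In T98, CD68 had 538 and 614 with LKB1 siRNA, against 708 and 1125 with control siRNA. Of the 4 neuron markers, 3 were tested, and their summed level was 5737 to 9571 in T98 with LKB1 siRNA, against 3731 to 3843 with control siRNA. In U87 it was 9560 to 10290 with LKB1 siRNA, against 5983 to 7884 with control siRNA. Most of the neuron sum was TUBB3, and SYT1 overlapped between the siRNAs in T98. SNAP25 did not overlap in either line, at 439 and 898 in T98 with LKB1 siRNA, against 85.5 and 288 with control siRNA. In U87, SNAP25 had 2386 and 2226 with LKB1 siRNA, against 778 and 577 with control siRNA. RBFOX3, which marks nuclei of mature neurons, was at 1.1 to 7.64. It was higher with LKB1 siRNA in T98 (5.73 and 6.52, against 1.1 and 3.82). In U87 RBFOX3 was lower with LKB1 siRNA (2.61 and 1.65, against 7.4 and 7.64). The 3 mesenchymal markers COL1A1, COL1A2 and PDGFRB summed to 35700 to 52740 in T98 with LKB1 siRNA, against 23700 to 26860 with control siRNA. In U87 they summed to 92450 to 119300 with LKB1 siRNA, against 64440 to 100300 with control siRNA, and these overlap. Their part in the enzyme results was not tested.

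The lines did not differ detectably in their response. The difference of the LKB1 siRNA effects (T98 minus U87) was 0.24 for CHPF (SE 0.35). Among the 10 it was largest in size for XYLT1, at 0.70 (SE 0.36, limma-trend adjusted p = 1.0, lane-term adjusted p = 0.356). None of the 10 passed in either fit, against 0.0% of all genes without and 0.476% with the lane term, and 0 of 10 had an unadjusted p under 0.05 in either, against 2.57% of all genes without and 14.8% with the lane term. The intervals around these values are wide, so the responses are not shown to be alike.

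The remaining genes of the route give the setting. Beside XYLT1 and XYLT2, the 5 other genes of the linkage list encode the enzymes of the tetrasaccharide and its phosphate. ACPL2, which removes the xylose phosphate, had 56 and 90.4 in T98 with LKB1 siRNA, against 15 and 26.6 with control siRNA. In U87, ACPL2 had 723 and 556 with LKB1 siRNA, against 186 and 107 with control siRNA. The groups did not overlap, and ACPL2 rose in the mean by 1.97 (SE 0.33, limma-trend adjusted p = 0.0377), a call that did not hold when any 1 of the 8 libraries was dropped (adjusted p between 0.0636 and 0.168), without the filter (adjusted p = 0.051) or with voom (adjusted p = 0.057). FAM20B, the kinase that adds that phosphate, had a mean effect of −0.52 in both fits. It was called lower with the lane term (SE 0.08, adjusted p = 0.00492) and not called without it (SE 0.23, limma-trend adjusted p = 0.34). B3GALT6, a galactosyltransferase of the linker, was called higher with the lane term (0.37, SE 0.10, adjusted p = 0.0339). The list as a whole had 2 of 7 genes higher without the lane term, against 1.0% of all genes. With it 4 were higher and 1 lower, against 13.2% of all genes for each direction, and the list's median was 0.33.

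**Figure D4:**
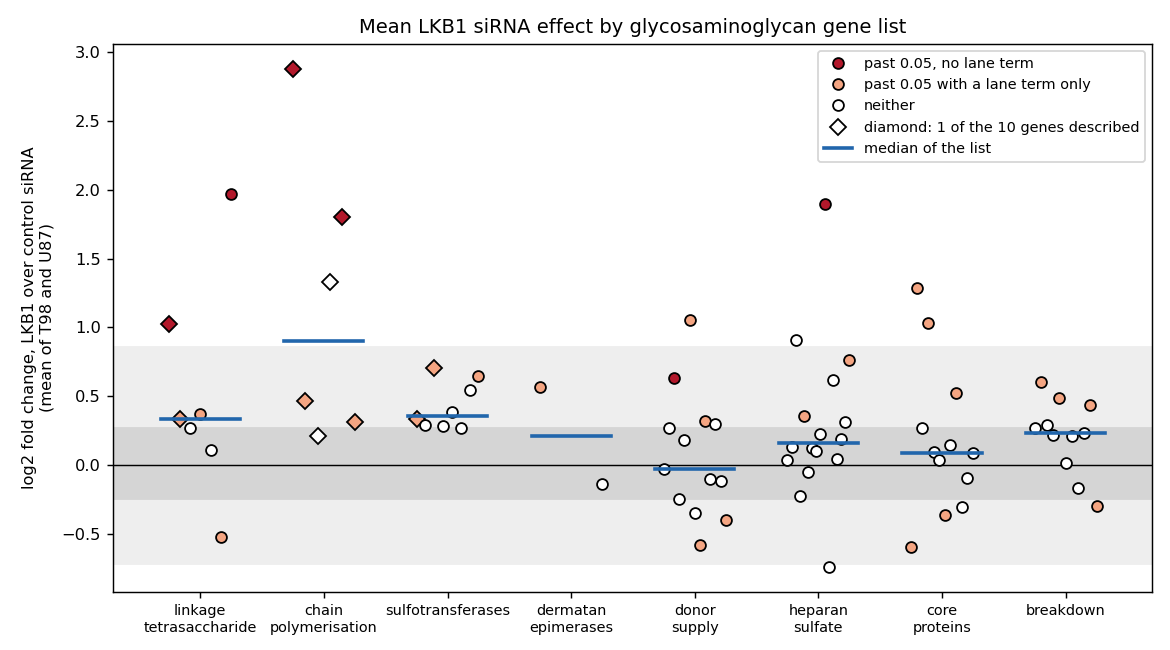
Mean LKB1 siRNA effect, as log2 fold change over both lines, of each gene in 8 lists of glycosaminoglycan genes, with filled points for those past the threshold and a bar for each list's median. Shaded bands hold the middle 50% and 90% of all genes. CHPF at 2.88 is the highest point, and the chain polymerisation list, which holds CHPF, has the highest median, 0.90.

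Of the 8 genes of the sulfotransferase list, 0 passed the threshold without the lane term. With it, 3 of 8 rose, against 13.2% of all genes: CHST3, CHST11 and UST, which adds sulfate to uronic acid (0.65, SE 0.11, adjusted p = 0.00573). CHST15, which forms disulfated N-acetylgalactosamine, had 2832 and 3331 in T98 with LKB1 siRNA, against 1226 and 1540 with control siRNA. In U87, CHST15 had 12.8 and 4.91 with LKB1 siRNA, against 9.49 and 7.62 with control siRNA. The lane-term fit called CHST15 higher in T98 (1.16, SE 0.26, adjusted p = 0.0282), and without the lane term the adjusted p was 0.433. DSE, an epimerase that turns chondroitin into dermatan sulfate, rose in the mean with the lane term (0.56, SE 0.08, adjusted p = 0.0038), and DSEL, the other epimerase, had −0.14.

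Among the 13 genes that supply sugar and sulfate donors, UGP2, which makes UDP-glucose, was the 1 that rose without the lane term (0.63, SE 0.12, limma-trend adjusted p = 0.0473). The UGP2 call did not hold when any 1 of the 8 libraries was dropped (adjusted p between 0.0863 and 0.19), without the filter (adjusted p = 0.0571) or with voom (adjusted p = 0.058). SLC35D1, a transporter of nucleotide sugars into the secretory route, and PAPSS1, which makes the sulfate donor, rose with the lane term (1.05 and 0.32), while the sulfate carrier SLC26A2 (−0.58) and IMPAD1 (−0.40), a phosphatase of the sulfate route, fell with it. The list's median was −0.03. The heparan sulfate list held 16 tested genes of 20, and HS6ST1, which adds sulfate at carbon 6 of glucosamine, had 3509 and 2881 in T98 with LKB1 siRNA, against 631 and 837 with control siRNA. In U87, HS6ST1 had 707 and 724 with LKB1 siRNA, against 189 and 265 with control siRNA. HS6ST1 rose in the mean by 1.90 (SE 0.18, limma-trend adjusted p = 0.0142), a call lost without any lane 2 library or without the lane 5 LKB1 siRNA library of U87 (adjusted p up to 0.0833). The median of that list was 0.16, and EXTL3 (0.35) and SULF2 (0.77) also rose in the lane-term fit.

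The 12 tested core protein genes had no call without the lane term. VCAN, which encodes versican, had 986 and 3745 in T98 with LKB1 siRNA, against 439 and 1112 with control siRNA. In U87, VCAN had 8329 and 5792 with LKB1 siRNA, against 2665 and 3851 with control siRNA. The lanes of T98 were far apart, and VCAN was called higher in the lane-term fit only (1.29, SE 0.18, adjusted p = 0.00284). The proteoglycan core genes SPOCK1 (0.52) and CSPG5 (1.03) rose in that fit, and BCAN (−0.60) and SRGN (−0.37) fell. Of 11 breakdown genes, HYAL2, a hyaluronidase (0.60), and the lysosomal sulfatases GALNS (0.48) and IDS (0.44) rose in the lane-term fit. SUMF1, which activates sulfatases, fell (−0.30), and the list had 0 calls without the lane term. Over all lists and without CHPF, 5 of 74 tested genes rose and 0 fell without the lane term (1.0% and 0.854% of all genes), and 23 rose and 6 fell with it (13.2% for each direction over all genes).

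Most of the enzymes were expressed at a lower level in T98 than in U87. Among control libraries, limma-trend called 7 of the 10 lower in T98, against 19.5% of all genes, and 0 higher, against 18.3%. XYLT1 had 544 and 568 in T98 control libraries, against 5865 and 9692 in U87 control libraries, a log2 fold change of −3.76 (SE 0.26, limma-trend adjusted p = 9.09e-05). CHST11 had 315 and 464 in T98, against 3126 and 3551 in U87 (−3.12, SE 0.24, adjusted p = 0.000121 by limma-trend). CSGALNACT1 had 64 and 86.4 in T98, against 565 and 324 in U87 (−2.51, SE 0.40, adjusted p = 0.00268 by limma-trend). CHST3, CHPF2, CSGALNACT2 and XYLT2 were also lower in T98, with log2 fold changes of −1.81, −1.24, −1.19 and −1.12.

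For 9 of the 10 both T98 control libraries were below both U87 control libraries, against 35.9% of all genes. CHPF itself was −0.70 (SE 0.25, limma-trend adjusted p = 0.0584) and −0.90 in the lane-term fit (adjusted p = 0.00952). That fit compares the lines at the level it estimates for lane 2. Between the lane 2 control libraries alone CHPF differed by −1.15. CHSY1 was −0.52 (adjusted p = 0.0806 by limma-trend) and called only in the lane-term fit (adjusted p = 0.0201), and CHSY3 was −1.06 with overlapping libraries (adjusted p = 0.507). With the lane term 9 of 10 were lower in T98, against 32.6% of all genes. Of these, the CHPF call was lost without the lane 2 control library of T98 or any 1 U87 library (−1.09 to −0.33 without 1 library). That of CHSY1 was lost without any 1 U87 library (−0.94 to −0.47 without 1 library). Those of CSGALNACT2 and XYLT2 were lost without the lane 2 control library of U87. The CHPF2 call was lost without the lane 2 control library of T98 (−1.09, limma-trend adjusted p = 0.0589). The CSGALNACT2 call was lost without that library or without the lane 5 control library of U87 (limma-trend adjusted p up to 0.076). XYLT1 with LKB1 siRNA in T98, at 1465 and 1428, was still below the control libraries of U87.

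**Figure D5:**
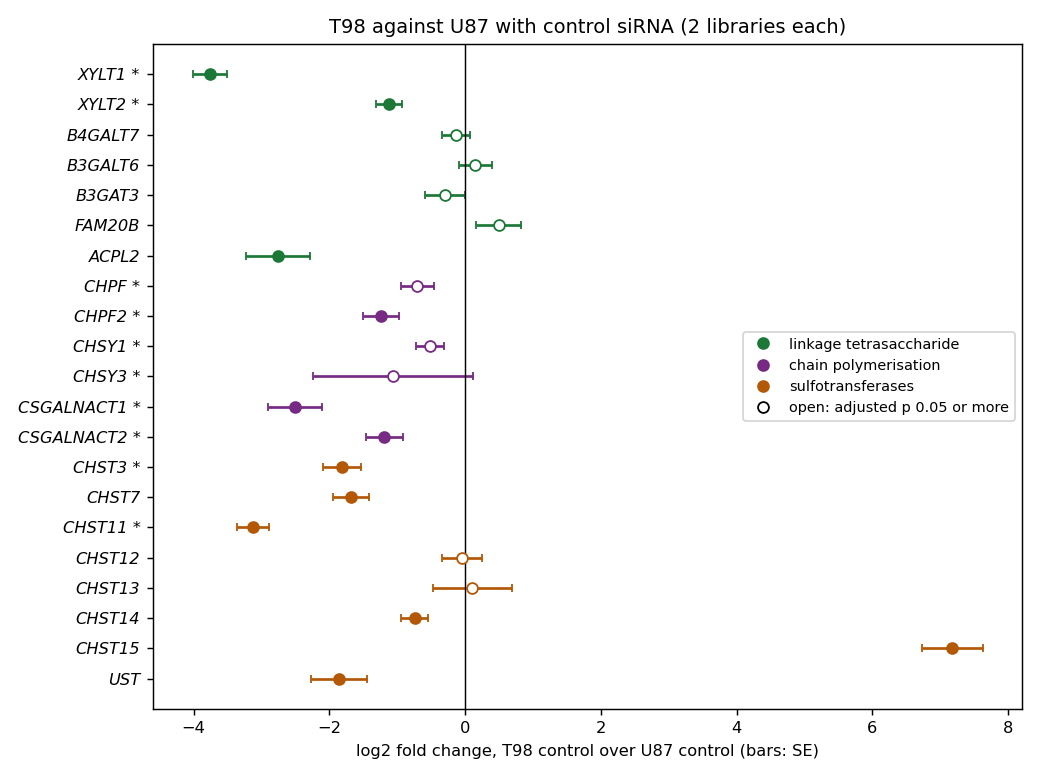
Log2 fold change of T98 over U87 control libraries for the genes of linkage, polymerisation and sulfation, with standard errors. Stars mark the 10 enzymes, filled points passed the threshold, and CHST15 at 7.18 stands opposite to the other called sulfotransferases.

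The direction was not shared by all of the route. CHST15 was higher in T98, by 7.18 (SE 0.45, limma-trend adjusted p = 7.09e-05), and UGDH, which makes the glucuronic acid donor, by 2.60 (SE 0.21, adjusted p = 0.000158 by limma-trend). Of the 8 sulfotransferases, 1 was higher in T98 and 5 lower. Per kilobase, CHST15 held 15.8% and 14.8% of the sulfotransferase level in T98 control libraries, against 0.0467% and 0.0466% in U87 control libraries. CHST11 held 4.59% and 5.06% in T98, against 17.4% and 24.6% in U87. CSPG4, the core protein NG2, had 20.2 and 18.0 in T98 control libraries, against 8521 and 4711 in U87 (−8.30, SE 0.44, limma-trend adjusted p = 4.2e-05), and VCAN was also lower in T98 (−2.19). Among heparan sulfate genes, 6 were higher and 6 lower in T98. SULF2, an extracellular sulfatase, and HS6ST3 and HS3ST1, sulfotransferases, were higher by 7.40, 6.82 and 5.46, on the log2 scale, and HS3ST3A1 was lower (log2 fold change −5.50).

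Per kilobase of transcript, the levels of the 10 enzymes were ordered differently in each group. In T98 with LKB1 siRNA the order was CHPF (mean 1850), CHPF2 (1540), CHSY1 (632), XYLT2 (431), CSGALNACT2 (224), CHST3 (164), XYLT1 (155), CHST11 (105), CSGALNACT1 (53.2) and CHSY3 (2.07). There CSGALNACT2 and CHST3, and CHST3 and XYLT1, overlapped. In T98 with control siRNA CHPF2 ranked 1 (1200) and CHPF ranked 4 (232), and CHST11 and XYLT1 overlapped. In U87 with LKB1 siRNA CHPF2 (4210) stood above CHPF (2540) and XYLT1 (1300), and CSGALNACT2 and CHST3 overlapped. In U87 with control siRNA CHPF2 (2890) ranked 1 and CHPF (379) ranked 8. XYLT1, XYLT2 and CHSY1 overlapped in turn there, as did CHST3, CSGALNACT2 and CHPF. CHSY3 was last in all 4 groups.

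Across the 8 libraries, which fall into 4 groups and share lanes and lines, the genes most like CHPF by Pearson's r of log2 values were CPNE2 (0.99), HERPUD2 (0.985), ASPHD1 (0.98) and HPS6 (0.979), among 12195 genes with a mean of at least 50. STK11 itself had −0.96. CSGALNACT1 was the enzyme most like CHPF, at 0.725 (rank 445), and the other enzymes ranked lay between 0.381 and 0.51. These are descriptions of 8 libraries with no test. CPNE2 had 2209 and 2029 in T98 with LKB1 siRNA, against 773 and 977 with control siRNA, and 2203 and 2029 in U87 with LKB1 siRNA, against 1170 and 1050 with control siRNA. Next to CHPF on the chromosome, TMEM198 begins 257 bases away on the opposite strand. TMEM198 averaged 1450 in T98 with LKB1 siRNA and 569 with control siRNA (log2 fold change 1.32, limma-trend adjusted p = 0.382, lane-term adjusted p = 0.0288). In U87, TMEM198 averaged 343 with LKB1 siRNA and 194 with control siRNA (0.89, limma-trend adjusted p = 0.691, lane-term adjusted p = 0.104). On the other side, ASIC4, 174 bases away, averaged under 6 in every group. No gene of the table overlaps a member's span, and the kit's reads carry no strand.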

How the data were processed

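RNA was sequenced in 8 TruSeq RNA V2 libraries, per the labels' protocols. The submitters' processing notes name TopHat2 2.0.8b, hg19, GRCh37 and edgeR, with no version for the last. The read counter and the annotation are not stated there. The authors deposited 1 normalised signal value for each of 18815 transcripts in each library. The deposited signal values take the form of the pseudo-counts that edgeR makes, although no source gives the step that the authors ran. Inverting that adjustment at a common dispersion of 0.06803 gave whole reads, within 0.05 read, for at least 99.761% of values in each library. Where a symbol had several transcripts, that with the highest mean was used.

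Log2 of the value plus 1 was fitted with limma-trend (limma 3.58.1, R 4.3.3), with 4 group means over 8 libraries (4 residual degrees of freedom), two-sided, with Benjamini-Hochberg adjustment over 14282 genes with a value of at least 10 in at least 2 libraries and a threshold of 0.05. The lane-term fit has 2 residual degrees of freedom. Over all 8 libraries it gives the same knockdown effects as the fit without the lane term, with other SEs. A gene said to rise or fall in 1 of the fits only was called in that fit only. Lanes come from the column names. Differences between lanes correlated at 0.717 (T98) and 0.809 (U87) between the groups of a line and at 0.124 to 0.177 between lines, so libraries pair by lane. Replicate numbers only name the libraries. Fold changes are on the log2(value + 1) scale, which understates low genes. The procedure was tested on simulated data.

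The members and lists were chosen with earlier results of these data known. Named were the members, STK11, in each list up to 2 higher and 2 lower genes with the smallest adjusted p past the threshold, the neighbours of CHPF and the 5 genes most like it, of which 1 is not reported here. A few others are named to complete counts or as examples and were chosen after their values were seen. Sequences came from RefSeq promoters (GRCh38.p14) and GENCODE 3′ UTRs (GRCh38). The promoters of 9 of the 10 members matched by symbol, and the 3′ UTRs of all 10. Alternatives were other filters, pseudocount 8, quantile normalisation, fitting only the groups compared, summing transcripts, leaving out each library, and voom on the recovered reads, which was added after the data were seen.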

Additional observations from a re-analysis of the deposited data

How the results depend on the processing

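All 10 enzymes kept a positive mean effect in every alternative that gave a value (23 settings, 22 for CHSY3, which falls under the filter of 100). No called effect changed sign, but 14 uncalled ones did, in 52 pairs of effect and setting, with 0 of these values called. With CHPF left out of the counts for the knockdown, 0 enzymes and 0 genes of all lists passed in T98, against 2 and 16 with the lane term (the replicate block). In U87, 0 and 0 passed, against 2 and 11 with the lane term and 1 list gene with quantile normalisation. For the mean of both lines, 2 enzymes and 5 list genes passed, against 7 and 29 with the lane term, 3 list genes without the filter, and 0 and 1 with voom, which gave CSGALNACT1 an adjusted p of 0.057 and XYLT1 one of 0.0701. Leaving out 1 library gave no enzyme and no list gene in either line, and for the mean no enzyme and hardly any list gene. Calls over all genes also became fewer in each of these settings, so this is not particular to the enzymes. With the lane term as well, the T98 counts were 1 and 3 without a lane 2 library of T98 and 4 and 27 without a lane 4 library. The U87 counts were then 4 and 18 without any 1 T98 library, and those for the mean were 7 and 23 without a lane 2 library of T98 and 6 and 33 without a lane 4 library. Over all genes the counts in these settings moved as those of the list genes did. With the lane term and 1 T98 library left out, the T98 effect rests on 1 pair of libraries, and the spread comes from U87 alone. The T98 counts in these settings include no spread measured in T98, so they do not test how firm its calls are. With the lane term and 1 U87 library left out, the spread comes from T98 alone, and no gene tested was called for the knockdown. In the comparison of the lines over all 8 libraries, 5386 of 14282 genes were called, and 9037 with the lane term. Calls were thus common over all genes in that comparison. The comparison of the lines gave 5 to 8 enzymes and 26 to 35 list genes without 1 library (5 to 10 and 34 to 56 with the lane term).

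The sign changes came with single libraries left out or with voom. CHSY3, limited by low reads, had 1.29 in T98, with a range from −0.37 to 2.95 without 1 library and −0.50 with the lane term and without a lane 2 library of T98. Between the control libraries of the lines, CHSY3 had −1.06, with a range from −2.72 to 0.60 and 1.58 with the lane term and without the lane 2 control library of T98. CHSY1 in T98 (0.23) ranged from −0.01 to 0.48, and was −0.00 with the lane term and without a lane 4 library. CHST3 in U87 (0.21) was −0.01 with the lane term and without a lane 5 library. The remaining changes were in the difference of effects between the lines, where all values of these genes are uncalled. Without 1 library it ranged from −0.51 to 0.11 for CHPF2, −0.20 to 0.29 for CHSY1, −1.74 to 1.58 for CHSY3, −0.45 to 0.35 for CSGALNACT1, −0.24 to 0.27 for CSGALNACT2, −0.05 to 0.53 for CHST3, −0.37 to 0.19 for CHST11 and −0.78 to 0.01 for ACPL2. With the lane term and 1 library less, the difference took the opposite sign at −0.14 for CHPF, −0.19 and −0.01 for CHSY1, 1.71 for CHSY3, −0.08 and −0.00 for CSGALNACT2, 0.34 and 0.01 for CHST11 and −0.03 for UGP2. With voom it was 0.27 for CHSY3 and 0.02 for CSGALNACT1. The cause of these changes was not tested. Fitting only the groups compared gives no value for the mean or the difference.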
